A study of Mus musculus with 8 samples.

Results

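The miR-106b, miR-93 and miR-25 microRNAs are made from 1 primary transcript and were followed here in MIN6B1 cells, a mouse insulinoma line. Their members are the distinct read sequences that the deposited table assigns by name to either arm of these microRNAs. There were 10 of them among 11568 distinct sequences and 652 with a mature microRNA name. Of these, 6 were length forms of mmu-miR-93-5p, 2 of mmu-miR-106b-5p, 1 of mmu-miR-25-3p and 1 of mmu-miR-25-5p. Another 5 sequences of the same hairpins matched a precursor only and are given beside them. The miR-106b 3p arm was not analysed here.

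The 8 small RNA libraries fall into 4 groups of 2. Cells carried either a control plasmid or a plasmid for HENMT1ΔC-T6B, a methyltransferase fusion, and all had been transfected by lipofection and kept for 24 to 72 hours. From each kind of cell, RNA was sequenced without oxidation and after oxidation with sodium periodate. The labels do not say that replicates were separate cultures, so p-values measure only the spread between these libraries, which may be technical. The plasmid's expression was not among the measurements used here. In bulk RNA, fewer cells and less RNA per cell cannot be told apart.

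MicroRNAs are cut from hairpins and loaded into Argonaute proteins, where the seed, bases 2 to 8 from the 5′ end, pairs with target mRNAs. Henmt1 adds a methyl group to the last ribose of small RNAs, and T6B is a peptide of a TNRC6 protein that binds Argonaute. Periodate oxidizes an unmodified 3′ end so that it no longer accepts a sequencing adapter, while a methylated end withstands it. The cluster is a paralog of the miR-17-92 cluster, is induced by E2F factors with its host gene Mcm7, a subunit of the replicative helicase, and is best known for promoting cell-cycle entry by repressing Cdkn1a and for dampening the pro-apoptotic gene Bcl2l11. In beta cells miR-106b-5p has been linked to proliferation through the Cip/Kip cell-cycle inhibitors.

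The mature sequences, from RefSeq in GRCm38.p6, are shown with the seed in capitals, because the 3 main products split into 2 seed groups. All lie on the minus strand of chromosome 5.
mmu-miR-106b-5p: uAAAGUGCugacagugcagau
mmu-miR-93-5p: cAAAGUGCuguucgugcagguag
mmu-miR-25-3p: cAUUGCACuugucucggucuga
mmu-miR-25-5p: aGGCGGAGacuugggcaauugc
miR-106b-5p and miR-93-5p share the seed AAAGUGC, which 5 other mouse microRNAs of this RefSeq reference carry, whether or not they were read here. The seed of miR-25-3p, AUUGCAC, is also carried by 5 others, among them miR-92a-3p and miR-92b-3p, and no other name has the seed of miR-25-5p.

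The hairpins lie head to tail within Mcm7, between exons 13 and 14 of the 15 exons of its principal transcript in GENCODE M21, and are intronic there. Mir106b spans chr5:138165737-138165818, Mir93 spans chr5:138165523-138165610 and Mir25 spans chr5:138165321-138165404. Mir25 and Mir93 also overlap an exon of a short transcript of Mcm7 that has 2 exons. Each of the 15 listed sequences had 1 genomic match in the deposited table of the authors.

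All forms of miR-93-5p begin at the same base, at position 138165596, and differ at their 3′ end. They are shown because the forms behaved differently after oxidation. The capital marks the last base, and T stands for U as in the reads.
18 nt: caaagtgctgttcgtgcA
19 nt: caaagtgctgttcgtgcaG
20 nt: caaagtgctgttcgtgcagG
21 nt: caaagtgctgttcgtgcaggT
22 nt: caaagtgctgttcgtgcaggtA
23 nt: caaagtgctgttcgtgcaggtaG
24 nt, precursor match: caaagtgctgttcgtgcaggtagT
The 23-nt form is the RefSeq mature sequence (chr5:138165574-138165596). A precursor match of 26 nt was also listed, with 0 to 16 counts per library.
The forms of miR-106b-5p and miR-25 were fewer.
miR-106b-5p, 20 nt: taaagtgctgacagtgcagA
miR-106b-5p, 21 nt: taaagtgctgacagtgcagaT
miR-106b-5p, 22 nt, precursor match: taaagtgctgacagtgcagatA
miR-25-3p, 22 nt: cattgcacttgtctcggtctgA
miR-25-5p, 22 nt: aggcggagacttgggcaattgC
miR-25-5p, 23 nt, precursor match: aggcggagacttgggcaattgcT
miR-93-3p, 23 nt, precursor match: actgctgagctagcacttcccgA
The 21-nt form of miR-106b-5p and both 22-nt forms of miR-25 equal the RefSeq mature sequences, and the miR-93-3p read is 1 base longer than its mature sequence.

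Listed counts ranged from 295094 to 6641250 per library and were lowest in both oxidized control libraries. Mature microRNAs took 61.6% to 67.2% of the listed counts in 6 libraries, and 3.14% and 3.43% in the oxidized control libraries. The table holds sequences that have, over the oxidized methyltransferase libraries, a minimum of 2 counts in either and 10 together, so sequences lost there are not in view. All 5 beta-cell microRNAs looked for were listed. Of the mature counts in non-oxidized control RNA, miR-375-3p took 12.8% to 16.1%, miR-7a-5p 8.94% to 10.7% and miR-7b-5p 3.15% to 4.14%. Far lower were miR-153-3p, at 0.003072% to 0.003655%, and miR-184-3p, at 0.007424% to 0.01069%. No acinar (3 names), muscle (3), blood (4) or mesenchymal (3) microRNA looked for was listed. The hepatocyte microRNA miR-122-5p had 0.00418% and 0.0132% of the mature counts there, and both neuronal names, miR-124-3p and miR-9-5p, had 0.0053% to 0.0863%; their part in the results below was not tested.

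In non-oxidized RNA with the control plasmid, miR-93-5p was by far the most read product of the cluster. Its 6 mature forms summed to 36057 and 42262 counts, 1.026% and 0.9654% of all mature microRNA counts (95% Wilson intervals 1.015 to 1.036 and 0.9563 to 0.9746, which cover counting error only). miR-25-3p followed with 1298 and 1583 counts, 0.0369% and 0.0362%. miR-106b-5p had 554 and 579 counts, 0.0158% and 0.0132%, and miR-25-5p had 63 and 47, 0.00179% and 0.00107%. The order was the same in both libraries and no neighbouring pair overlapped. miR-93-5p thus had 27.8 and 26.7 times the counts of miR-25-3p and 65.1 and 73.0 times those of miR-106b-5p. These ratios compare reads of microRNAs of nearly equal length, made from the same transcript, as the kit captured them.

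**Figure D1:**
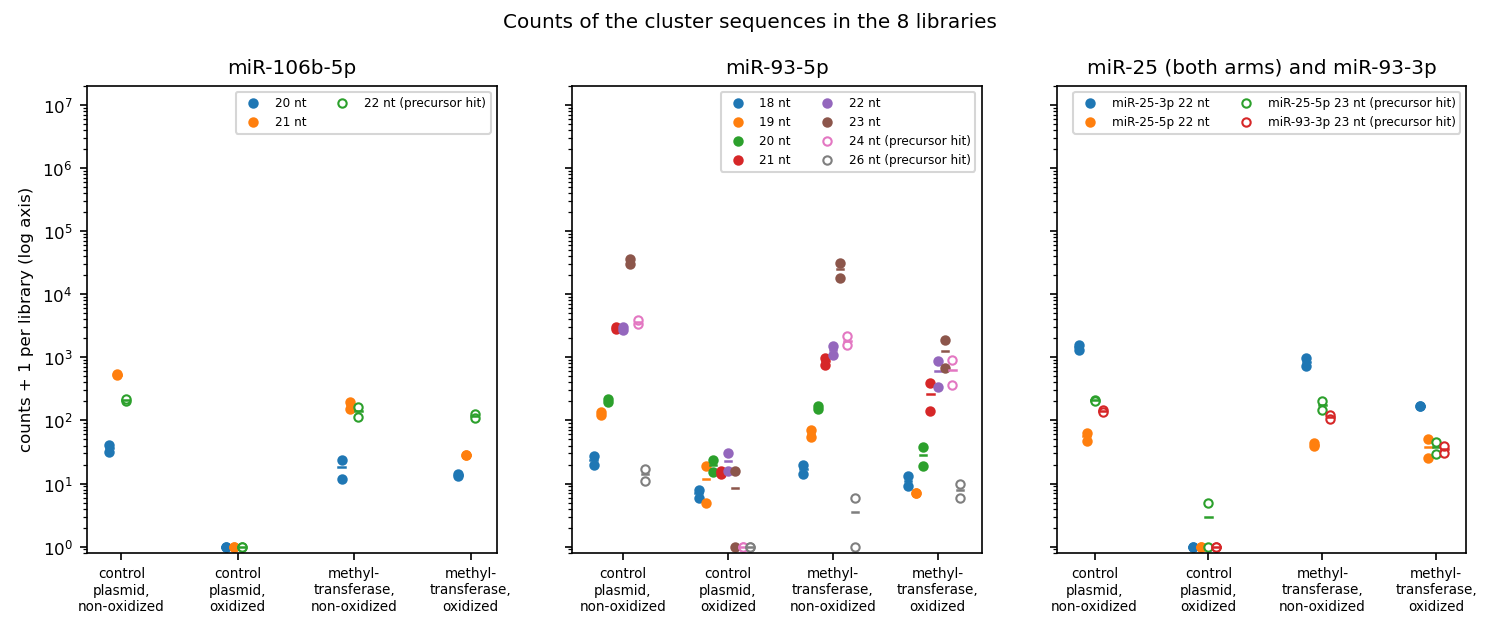
Counts + 1 of the 15 cluster sequences (log axis) in each library, by group; points are libraries, short lines the group means of counts + 1, and open points sequences matching a precursor only. All miR-106b-5p forms and miR-25-3p are at 0 counts in both oxidized control libraries, whereas miR-93-5p forms of 18 to 22 nt keep 4 to 29 counts.

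Oxidation of control RNA removed nearly all reads of the cluster. The main test was edgeR's quasi-likelihood test on counts scaled by TMM factors, with Benjamini-Hochberg adjustment over the 9851 sequences tested and a call at an adjusted p under 0.05. By it all 10 members fell, where 46.4% of all sequences tested fell, as did 563 of the 607 mature microRNA sequences tested. All 10 members and 4 of the 5 precursor matches had passed edgeR's filter on low counts. The members' median fitted change was -8.20 on the log2 scale, or -5.98 with the 4 members at 0 set to their bounds. The fitted median was -1.14 over all sequences tested and -8.69 over the mature sequences.

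miR-25-3p, whose seed group includes miR-92a, had 1298 and 1583 counts before and 0 and 0 after oxidation of control RNA. It was at least 607-fold lower, against a floor of 3 counts per library. This bound and those below hold under TMM scaling, whose factors for the oxidized control libraries were 7.05 and 7.23. The 21-nt miR-106b-5p form went from 523 and 539 counts to 0 and 0, at least 224-fold lower. Its 20-nt form went from 31 and 40 to 0 and 0, at least 14.9-fold lower, and miR-25-5p from 63 and 47 to 0 and 0, at least 23.3-fold lower; with mature sequences alone in the fit, neither of these 2 was called (edgeR adjusted p = 0.147 and 0.0699). The oxidized control libraries are shallow. A count of 0 there allows a share of up to 0.0218% and 0.0297% of mature counts. This is below the share of miR-25-3p in non-oxidized control RNA but above those of miR-106b-5p and miR-25-5p. By share, therefore, a count of 0 sets no minimum fall for miR-106b-5p and miR-25-5p.

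miR-93-5p was still read in oxidized control RNA, with other proportions of its lengths. The 23-nt form, which has the sequence of the mature microRNA, had 30217 and 35867 counts before oxidation and 0 and 15 after it. The fitted change was -12.32 ± 1.21 (SE, edgeR adjusted p = 4.77e-06), and it rests on the second oxidized library. Without that library the fitted change was -18.23, which is no measure of size, as the remaining one had 0 counts. Without the first it was -11.23. The 22-nt form went from 2663 and 2978 to 29 and 15 counts, and the 21-nt form from 2806 and 3074 to 15 and 13. The groups lie far apart for all 3 of these forms.

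The shorter forms of miR-93-5p changed less. The 20-nt form had 216 and 195 counts before and 23 and 14 after oxidation of control RNA, the 19-nt form 136 and 122 against 18 and 4, and the 18-nt form 19 and 26 against 5 and 7. Their fitted changes were -3.87 ± 0.48, -4.01 ± 0.59 and -2.21 ± 0.64 (SE) under TMM scaling, but 0.53, 0.37 and 2.19 under scaling by total listed counts, so their direction depends on the scaling. The 18-nt call was lost without non-oxidized control replicate 2 (-2.02, edgeR adjusted p = 0.0567) or without oxidized control replicate 1 (-1.80, adjusted p = 0.0696). Without oxidized control replicate 1 the 19-nt value was -5.10. Total-count scaling moved the median of all sequences in this comparison from -1.14 to 3.2; the 23-, 22- and 21-nt forms fell under it as well.

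The make-up of miR-93-5p by length needs no scaling between libraries. The 23-nt form was 76.7% and 77.6% of all templated miR-93-5p counts in non-oxidized control RNA. In oxidized control RNA it was 0% of 90 counts, which allows up to 3.33%, and 22.1% of 68 counts. The forms of 18 to 20 nt made up 0.942% and 0.742% before oxidation and 51.1% and 36.8% after it (Wilson intervals for the latter 41.0 to 61.2 and 26.3 to 48.6). The 24-nt form, 8.47% and 8.51% before, had 0 counts in both oxidized control libraries.

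**Figure D2:**
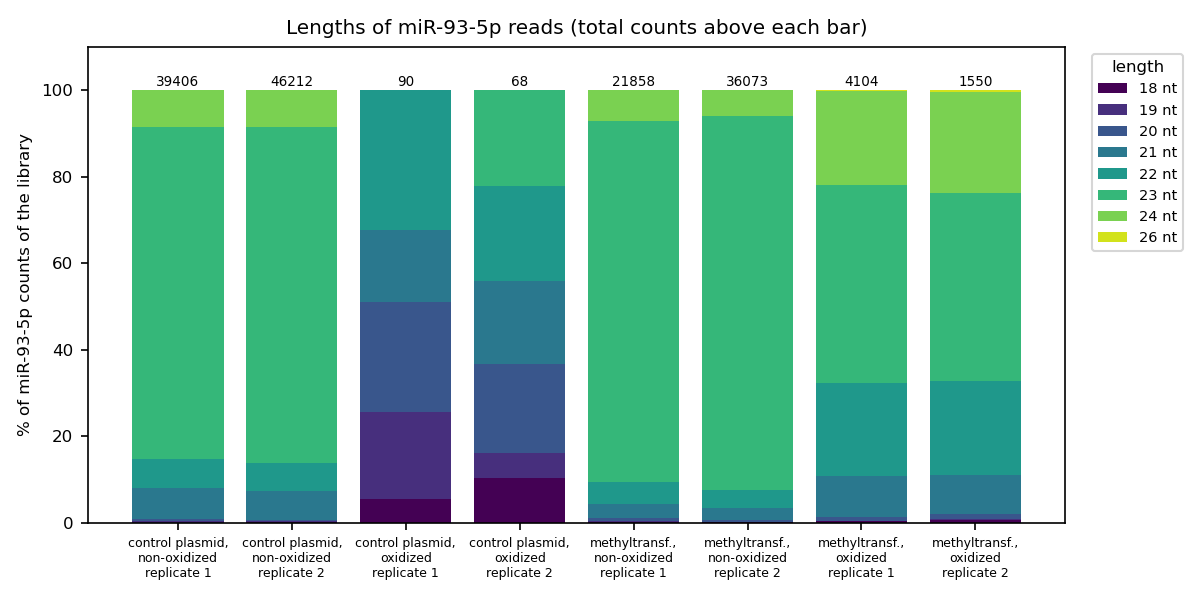
Share of each length (stacked bars, % of the miR-93-5p counts of the library, 8 templated lengths) in the 8 libraries, with the total count above each bar. The 23-nt form holds 76.7% to 86.4% in the 4 non-oxidized libraries, 0% and 22.1% in oxidized control RNA, and 45.8% and 43.3% in oxidized methyltransferase RNA.

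With the methyltransferase plasmid, the cluster was read after oxidation. Of the 10 members, 7 were higher in oxidized methyltransferase than in oxidized control RNA and none was lower, where 42.3% of all sequences tested were higher. Of the 607 mature sequences, 518 were higher (85.3%). Only sequences with counts in both oxidized methyltransferase libraries are listed. This favours higher calls in that group, among the members and in both reference shares. The members' median was 5.71 on the log2 scale, or 3.43 with the 4 members at their bounds, against 0.82 over all sequences and 6.49 over all mature sequences. Libraries of the 2 groups did not overlap for the 7 higher members, but sequences without overlap were not counted over the rest.

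The 23-nt form of miR-93-5p had 0 and 15 counts in oxidized control and 1881 and 672 in oxidized methyltransferase RNA. It was higher by 7.28 ± 1.03 on the log2 scale (SE; edgeR adjusted p = 0.00012). Without oxidized control replicate 2 the fitted value was 13.14 and without replicate 1 it was 6.14. The 13.14 is no measure of size, as the remaining oxidized control library had 0 counts. Leaving out oxidized methyltransferase replicate 1 or 2 gave 6.59 or 8.26. The first of these libraries held more counts of each miR-93-5p form from 20 to 24 nt.

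The 22-nt form of miR-93-5p rose from 29 and 15 to 882 and 337 counts, by 4.86 ± 0.50, and the 21-nt form from 15 and 13 to 386 and 140, by 4.24 ± 0.50. Without oxidized methyltransferase replicate 1 or 2, the 22-nt value was 4.22 or 5.74 and the 21-nt value 3.55 or 5.16. Total-count scaling gave 1.85 and 1.23, and a fit of the mature sequences alone 0.82 (edgeR adjusted p = 0.142) and 0.26 (adjusted p = 0.617), where both calls were lost. miR-25-3p went from 0 and 0 to 169 and 170 counts, at least 59.4-fold higher. The 21-nt miR-106b-5p form went from 0 and 0 to 27 and 27, at least 9.46-fold higher, and its 20-nt form from 0 and 0 to 13 and 12, at least 4.36-fold higher (adjusted p = 0.112 with mature sequences alone). miR-25-5p went from 0 and 0 to 49 and 24, at least 12.3-fold higher. These bounds hold under TMM scaling. A count of 0 in oxidized control RNA allows a share of up to 0.0218% and 0.0297% of mature counts. The shares of miR-25-3p, miR-106b-5p and miR-25-5p in oxidized methyltransferase RNA lay below that, so shares give no minimum rise.

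The 3 members without a call were the shortest forms of miR-93-5p. The 20-nt form had 23 and 14 counts in oxidized control and 37 and 18 in oxidized methyltransferase RNA, a fitted difference of 0.65 ± 0.46 (SE; edgeR adjusted p = 0.299). The 19-nt form had 18 and 4 against 6 and 6 (-0.67 ± 0.63, adjusted p = 0.447), and the 18-nt form 5 and 7 against 12 and 8 (0.76 ± 0.66, adjusted p = 0.401). Raw counts overlapped for the 19- and 20-nt forms, in libraries of very different depth. In TMM-scaled CPM the 20-nt form had 7.02 ± 0.62 in oxidized control and 11.04 ± 3.82 in oxidized methyltransferase RNA (SD, n = 2), which do not overlap, and the 19-nt form 3.86 ± 2.80 and 2.50 ± 0.39, which do. Under total-count scaling, which moved the median of all sequences from 0.82 to -2.17, these forms were lower, at -2.36, -3.67 and -2.24 with adjusted p of 0.00264, 0.00126 and 0.0117, while the other 7 members stayed higher. Without oxidized control replicate 1 the 19-nt value was 0.39, and without oxidized methyltransferase replicate 2 the 20-nt form was called, at 1.41 (adjusted p = 0.0392). Of the mature sequences tested, 15, 58 and 61 of 607 had a lower change than the 19-, 20- and 18-nt forms.

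**Figure D3:**
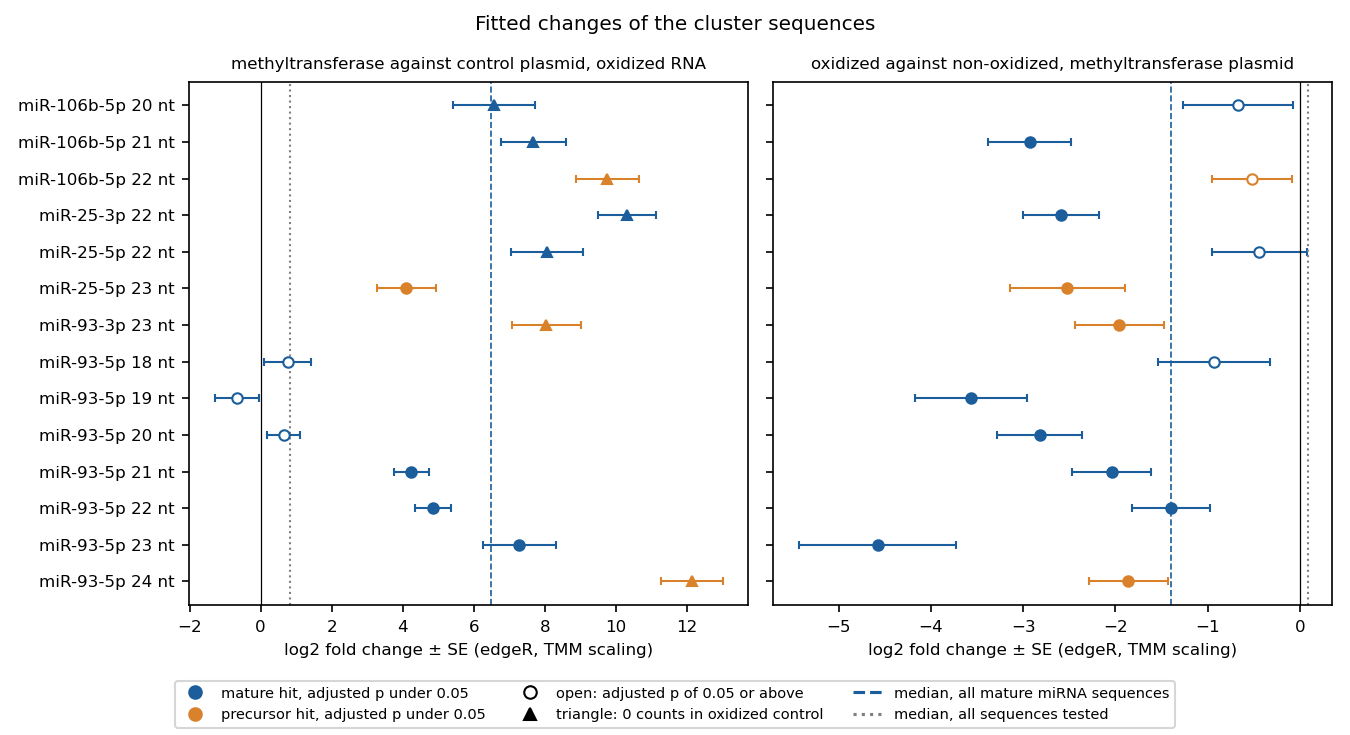
Fitted log2 fold changes ± SE (x axis) of the 14 tested cluster sequences (y axis) in 2 comparisons, with the medians of all mature sequences (dashed) and of all sequences tested (dotted). In oxidized RNA the 18- to 20-nt forms of miR-93-5p lie between -0.67 and 0.76 while the longer forms lie above 4; triangles mark sequences at 0 in oxidized control RNA, whose fitted value is no measure of size.

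Whether the cluster came through oxidation in full was read from oxidized against non-oxidized RNA of methyltransferase cells. Of the 10 members, 7 were lower after oxidation and none was higher, where 11.2% of all sequences tested were lower. Among the mature sequences 251 of 607 (41.4%) were lower. The members' median was -2.32, against -1.39 over the mature sequences and 0.09 over all sequences tested. The count rests partly on oxidized methyltransferase replicate 2, without which 4 members were lower.

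The 23-nt form of miR-93-5p fell furthest of the members. It had 18255 and 31159 counts without and 1881 and 672 with oxidation. The difference of 23.9-fold between the mean scaled counts corresponded to -4.58 ± 0.86 on the log2 scale (SE; edgeR adjusted p = 0.00381). Of 607 mature sequences, 36 (5.93%) had a lower value. It was negative under each of the other settings run, from -3.13 with the mature sequences alone to -5.30 without oxidized methyltransferase replicate 1. Without oxidized methyltransferase replicate 2 it was -3.94 with an adjusted p of 0.0509.

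Its neighbours in length fell less or were not called. The 22-nt form had 1088 and 1513 counts without and 882 and 337 with oxidation, -1.40 ± 0.42 (edgeR adjusted p = 0.0495). That call was lost without oxidized methyltransferase replicate 2 (-0.79, adjusted p = 0.321), without either non-oxidized library of either plasmid (adjusted p of 0.0885 to 0.217), and under 3 of the 3 other scalings. The 21-nt form went from 755 and 991 to 386 and 140, -2.04 ± 0.43 (adjusted p = 0.00831), and was -1.41 without oxidized methyltransferase replicate 2 (adjusted p = 0.0713) and -2.75 without replicate 1. Its call was also lost under total-count and upper-quartile scaling (adjusted p = 0.0879 and 0.0756). The 24-nt precursor match went from 1544 and 2148 to 891 and 364, -1.86 ± 0.43 (adjusted p = 0.0156), and was -1.28 (adjusted p = 0.122) without oxidized methyltransferase replicate 2 and -1.72 (adjusted p = 0.0761) without non-oxidized methyltransferase replicate 2. Both scalings ended that call too (adjusted p = 0.127 and 0.112). The 20-nt form fell from 150 and 169 to 37 and 18 (-2.82 ± 0.46, adjusted p = 0.0015), and the 19-nt form from 53 and 69 to 6 and 6 (-3.56 ± 0.61, adjusted p = 0.00205). The 18-nt form had 13 and 19 against 12 and 8 (-0.93 ± 0.61, adjusted p = 0.373). Ordered by length, the fitted changes thus did not run in 1 direction: the 19-, 20- and 23-nt forms were lowest and the 18-, 22- and 24-nt forms highest.

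miR-25-3p had 977 and 726 counts without and 169 and 170 with oxidation in methyltransferase cells. It fell by 2.59 ± 0.41 on the log2 scale (SE; edgeR adjusted p = 0.00186), 6.01-fold in mean scaled counts. The 21-nt miR-106b-5p form fell from 192 and 153 to 27 and 27, by 2.93 ± 0.45 (adjusted p = 0.00142), 7.64-fold. Both remained called under every other scaling and with each library left out in turn. Its 20-nt form had 11 and 23 against 13 and 12 counts (-0.67 ± 0.60, adjusted p = 0.523), and miR-25-5p 38 and 43 against 49 and 24 (-0.44 ± 0.51, adjusted p = 0.629). For these last 2 sequences the raw counts overlapped. The TMM-scaled CPM did not, at 8.26 ± 3.54 and 5.19 ± 0.52 for the 20-nt form and 20.01 ± 0.17 and 14.7 ± 5.01 for miR-25-5p (SD, n = 2), and the sign turned under total-count scaling (0.23 and 0.42).

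Within miR-106b-5p the forms changed places. The 22-nt precursor match, 1 base longer than the mature sequence, had 0.392 and 0.399 times the counts of the 21-nt form in non-oxidized control RNA and 0.844 and 0.745 times in non-oxidized methyltransferase RNA. After oxidation it had 4.59 and 4.0 times as many. Its own counts were 162 and 114 without and 124 and 108 with oxidation, a fitted -0.52 ± 0.43 (SE; edgeR adjusted p = 0.491). The ratio within a library needs no scaling, and none of the groups overlapped in it. The oxidized control libraries had 0 counts of both forms.

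Lengths also shifted within miR-93-5p. In oxidized methyltransferase RNA the 23-nt form was 45.8% and 43.3% of the templated miR-93-5p counts, against 83.5% and 86.4% without oxidation. The 22-nt form was 21.5% and 21.7% against 4.98% and 4.19%, and the 24-nt form 21.7% and 23.5% against 7.06% and 5.96%. The forms of 18 to 20 nt stayed minor, at 1.34% and 2.06%. An exact permutation test of 2 against 2 libraries cannot give a p below 0.333, so these shares are given as values.

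Relative to other microRNAs, miR-93-5p took less of the oxidized methyltransferase libraries. Its share of mature microRNA counts was 0.9027% and 1.113% without and 0.1566% and 0.0719% with oxidation, 8.82-fold lower in the means of 2 libraries (1.008 ± 0.149% and 0.114 ± 0.060%, SD). miR-25-3p went from 0.0434% and 0.0238% to 0.00826% and 0.0103%, and miR-106b-5p from 0.00902% and 0.00577% to 0.00196% and 0.00237%. miR-25-5p, the rarest arm, had 0.00169% and 0.00141% against 0.0024% and 0.00146%, and its shares overlapped. In the small remainder of oxidized control RNA, of 13772 and 10115 mature counts, miR-93-5p held 0.6535% and 0.6723%. Over 20 such comparisons of shares the smallest exact two-sided permutation p was 0.333 (0.444 adjusted over the 20).

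The last base at the 3′ end, which belongs to the nucleotide that the methyl group would be added to, differed between the forms. This grouping was chosen after the values were seen. The 3 cluster sequences that end in guanine, the 19-, 20- and 23-nt forms of miR-93-5p, had changes of -2.82 to -4.58 in oxidized against non-oxidized methyltransferase RNA. The 11 other tested cluster sequences ranged from -0.44 to -2.93. Among 851 tested microRNA sequences outside the cluster, mature or precursor matches, those ending in guanine had a median of -2.25 (175 sequences, 60.0% called lower). The medians were -1.09 for adenine (165 sequences, 30.3%), -1.32 for cytosine (121, 35.5%) and -1.13 for uracil (390, 33.6%). In oxidized against non-oxidized control RNA the 4 medians lay between -8.69 and -9.15. The oxidized control libraries held only 13772 and 10115 mature counts, so a difference by last base could be hidden there. Among 102 sets of sequences that share their first 15 bases and include both a guanine end and another end, the most abundant guanine form was the lower in 82 when set against the most abundant other form, with a median difference of -1.19. Sequences that share a start are not independent, and abundance and length also differ between ends, so these counts are a description.

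**Figure D4:**
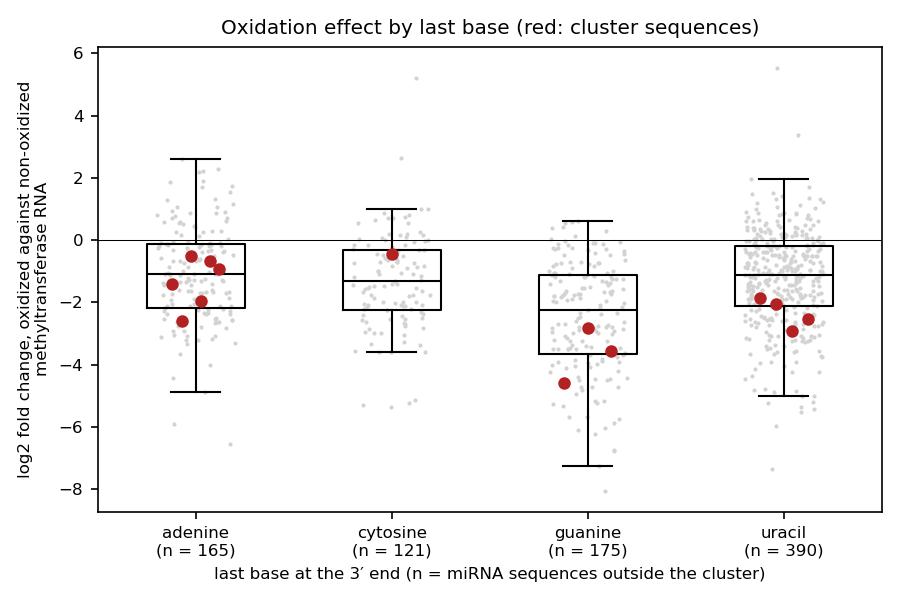
Log2 fold change of oxidized against non-oxidized methyltransferase RNA (y axis) by last base, for the microRNA sequences outside the cluster (grey points, with box from quartile to quartile, median line and whiskers to 1.5 times the box height) and the 14 tested cluster sequences (red). The 3 red points under guanine lie at -2.82 to -4.58.

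Without oxidation no difference between the plasmids passed the main test. No member was called, and no sequence of the 9851 tested was (0%), while 392 higher and 466 lower ones had a p under 0.05 before adjustment. Of the members, 3 did, all lower with the methyltransferase. Among the 607 mature sequences 139 did, also all lower, and the median change over the 607 was -0.63. The 21-nt form of miR-93-5p had 2806 and 3074 counts with the control and 755 and 991 with the methyltransferase plasmid, -1.78 ± 0.43 (SE; edgeR adjusted p = 0.269). The 21-nt form of miR-106b-5p had 523 and 539 against 192 and 153, -1.63 ± 0.41 (adjusted p = 0.299), and the 22-nt form of miR-93-5p 2663 and 2978 against 1088 and 1513, -1.15 ± 0.42 (adjusted p = 0.443). Libraries did not overlap for any of these 3 forms, but sequences without overlap were not counted over the rest. DESeq2's Wald test called both 21-nt forms lower (-2.01, adjusted p = 0.0198, and -1.83, adjusted p = 0.0286), among 35 sequences higher and 82 lower in all.

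The oxidation effect differed between the plasmids for 7 members, all with a smaller loss under the methyltransferase. In that direction 39.6% of all sequences tested and 85.7% of the mature ones (520 of 607) were called. The limit on counts in oxidized methyltransferase libraries for being listed favours this direction. The 3 other members were again the 18-, 19- and 20-nt forms of miR-93-5p. Their differences were 1.28 ± 0.88, 0.44 ± 0.84 and 1.04 ± 0.62 (SE, edgeR adjusted p = 0.295, 0.74 and 0.221). Under total-count scaling 7 members were again called with a smaller loss, and 3 with a larger one. With mature sequences alone 4 were called with a smaller and 3 with a larger loss.

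The 4 tested precursor matches were all lower after oxidation of control RNA and all higher in oxidized methyltransferase than in oxidized control RNA. Over all sequences tested 46.4% and 42.3% were, and over the mature ones 92.8% and 85.3%. The 24-nt form of miR-93-5p had 3339 and 3934 counts in non-oxidized control and 0 and 0 in oxidized control RNA, at least 1530-fold lower. With 891 and 364 counts in oxidized methyltransferase RNA it was at least 210-fold higher there. These bounds and those below hold under TMM scaling. The 22-nt form of miR-106b-5p, with 205 and 215, then 0 and 0, then 124 and 108 counts, was at least 40.3-fold higher in oxidized methyltransferase RNA. The miR-93-3p read, from the arm opposite miR-93-5p, had 145 and 133, 0 and 0, then 30 and 39 counts, at least 12.3-fold higher. The 23-nt miR-25-5p form had 212 and 203, 0 and 4, then 45 and 28 counts, higher by 4.10 ± 0.83 (SE, edgeR adjusted p = 0.00142). It was higher by 2.93 without oxidized control replicate 1 and by 8.06 without replicate 2. The 8.06 is no measure of size, as the remaining oxidized control library had 0 counts. In methyltransferase RNA, oxidation lowered the miR-93-3p read (-1.96 ± 0.48, adjusted p = 0.0225) and the 23-nt miR-25-5p form (-2.52 ± 0.63, adjusted p = 0.0202), both calls being lost when either oxidized methyltransferase library was left out (adjusted p of 0.0629 to 0.138) and under total-count scaling (adjusted p = 0.16 and 0.114). Leaving out non-oxidized methyltransferase replicate 1 ended the call of the miR-93-3p read (adjusted p = 0.103), and leaving out replicate 2 that of the miR-25-5p form (adjusted p = 0.0584).

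The cluster's paralogs could hardly be compared. Of 25 names from the miR-17-92 and miR-106a-363 clusters and the shared seed groups, 1 had a listed sequence, and the others were not analysed here. It was miR-92b-3p, of the miR-25-3p seed group, with 101 and 33 counts in non-oxidized control, 0 and 0 in oxidized control, 61 and 59 in non-oxidized methyltransferase and 8 and 4 in oxidized methyltransferase RNA. Over the 8 libraries, the log2 scaled counts most like those of miR-25-3p among 370 mature sequences were those of miR-29a-3p (Pearson r = 0.9997), miR-29b-3p (0.9987) and miR-342-3p (0.9981). For miR-106b-5p they were miR-488-3p (0.9993), miR-340-5p (0.9984) and miR-378a-3p (0.9979), and for the 23-nt form of miR-93-5p miR-574-5p (0.9958), miR-129-5p (0.9938) and miR-99b-5p (0.9903). All points share the 8 libraries. Over the 6 libraries other than oxidized control RNA, an alternative chosen after seeing the data, r for these 9 pairs ranged from 0.9855 to 0.9976.

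The authors' deposited table compares the same libraries. In the authors' deposited table the 23-nt form of miR-93-5p was 21.7-fold higher in non-oxidized than in oxidized methyltransferase RNA (deposited adjusted p = 0.0134), the 21-nt form of miR-106b-5p 7.68-fold (3.12e-06), miR-25-3p 6.07-fold (9.29e-06) and the 22-nt form of miR-93-5p 2.43-fold (0.09). The 18-, 19- and 20-nt forms of miR-93-5p have deposited adjusted p of 0.433, 0.709 and 0.241 between oxidized control and oxidized methyltransferase RNA in the authors' deposited table.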

How the data were processed

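Per the labels' protocols, libraries started from 5 ng of RNA with the QIAseq miRNA kit. The authors deposited 1 table with a raw count of each distinct read sequence in each of the 8 libraries, per the file headers. Aligner, build, trimming, counter and use of molecular identifiers are not given in the sources used here. The deposited normalized signal, regularized log2 values and shrunken fold changes were not used. The authors' signed fold changes and p-values were copied as deposited.

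Lines repeating a sequence were merged (12608 lines, 11568 sequences). Forms were placed on the RefSeq hairpins (GRCm38.p6). The main test was the quasi-likelihood test of edgeR 4.0.16 (R 4.3.3) after filterByExpr and TMM scaling, in a single fit of all 8 libraries by group with 5 contrasts. Alternatives were DESeq2 1.42.0, limma 3.58.1 (voom), 3 other scalings, other filters, summing by name, fewer libraries and a replicate block. Named were the most abundant sequence of each arm, and other members where a call differed. TMM factors ranged from 0.307 to 7.23, so changes between oxidized and non-oxidized control RNA depend strongly on scaling. SE is the absolute fitted log2 change divided by the square root of the F statistic of the main test. It is not an error reported by edgeR. Shares have 95% Wilson intervals, and a count of 0 a limit of 3 counts. Bounds against groups at 0 use 3 counts per library in TMM-scaled counts, so they hold under that scaling only. The fit was checked on simulated data for the oxidation effect with the methyltransferase plasmid only. There 198 of 200 sequences changed 8-fold were recovered and 6 unchanged ones were called. The comparisons with oxidized control RNA were not checked in this way. The members and lists were chosen with earlier results of these data known.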

Additional observations from a re-analysis of the deposited data

Results flagged for a closer look

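For 7 members the effect of oxidation differed between control and methyltransferase cells by a test of the difference itself (the interaction of plasmid and oxidation, edgeR, TMM scaling). A smaller loss was called for 39.6% of all sequences tested and 85.7% of the mature ones. The fitted differences on the log2 scale were 7.74 for the 23-nt form of miR-93-5p, 6.01 for its 22-nt form and 6.03 for its 21-nt form. They were 9.31 and 7.66 for the 21- and 20-nt forms of miR-106b-5p, 11.09 for miR-25-3p and 8.53 for miR-25-5p. The last 4 sequences had 0 counts in both oxidized control libraries, so their fitted values are no measure of size. With 3 counts per library as a floor under TMM scaling, their losses differed at least 29.3-fold, 9.39-fold, 101-fold and 17.1-fold. The value of the 23-nt form was 6.61 without oxidized control replicate 1 and 13.61 without oxidized control replicate 2. The 13.61 is no measure of size, as the remaining oxidized control library had 0 counts of this form. Without oxidized methyltransferase replicate 1 the value was 7.06, and without replicate 2 it was 8.70. The 22-nt form had 5.38 and 6.87 and the 21-nt form 5.35 and 6.92 without oxidized methyltransferase replicate 1 or 2.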

How the results depend on the processing

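Over 50 values of single sequences and 846 alternatives, 774 kept direction and side of the threshold, 43 lost the call, 5 gained it and 24 changed sign; the cause was not tested. With at least 10 counts in every library, 3 members were left, of which 2 were higher in oxidized methyltransferase than in oxidized control RNA, 3 fell on oxidation of control RNA, 2 fell on oxidation of methyltransferase RNA and 2 differed between plasmids. Summed by name, the counts were 4, 4, 3 and 4 of 4 sums. With mature microRNAs alone they were 4 (3 in the other direction), 5 (3), 5 (0) and 4 (3) of 10. DESeq2's Wald test called 2 members lower in non-oxidized RNA. Leaving out each library gave 7 to 8 members higher in oxidized RNA, 9 to 10 lower in control, 4 to 7 lower in methyltransferase RNA (4 without oxidized methyltransferase replicate 2), 7 to 8 in the interaction and 0 in non-oxidized RNA. Total counts gave 7 members higher and 3 lower both in oxidized RNA and in the interaction. Among all sequences called in either direction, total counts turned the share called higher from 91.5% to 36.4% in oxidized RNA. That share went from 28.4% to 69.1% in control oxidation, from 13.7% to 61.5% in methyltransferase oxidation and from 92.95% to 32.7% in the interaction. Upper quartiles gave 67.9%, 49.7%, 55.2% and 76.2% in the same order.

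Sign changes were these. In oxidized methyltransferase against control RNA, miR-93-5p of 18 nt had -2.24 by total counts, -0.14 by upper quartile and -3.17 with mature microRNAs alone, and of 20 nt -2.36, -0.24 and -3.36; of 19 nt it ranged from -1.25 to 0.385 with 1 library left out (0.385 without oxidized control replicate 1). On oxidation of control RNA the 18-, 19- and 20-nt forms had 2.19, 0.37 and 0.53 by total counts and 3.86, 2.19 and 2.28 with mature microRNAs alone. On oxidation of methyltransferase RNA, by total counts and upper quartile, the 20-nt form of miR-106b-5p had 0.23 and 0.10, its 22-nt form 0.32 and 0.25, and miR-25-5p 0.42 and 0.34. With mature microRNAs alone the 20-nt form of miR-106b-5p had 0.78, miR-25-5p 1.01, and miR-93-5p 0.52 (18 nt) and 0.054 (22 nt); with 1 library left out, miR-25-5p ranged from -0.866 to 0.031 (without oxidized methyltransferase replicate 2).

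Deviations of same-numbered libraries correlated at -0.031 to 0.372 between groups, over 0.1 in 3 of 6 pairs of groups, so not every pair met the minimum of 0.1 and the numbers were not taken to pair the libraries. With the replicate block the counts of members were 7, 0, 10, 7 and 7, as without it. Where 1 library was left out, the lone library was assumed to vary like the other groups. The cluster's mean share in oxidized methyltransferase RNA was 0.128%, 0.0847% of all listed counts, 0.171% with precursor matches and 0.0861% to 0.169% with 1 library left out. Depth limits statements on oxidized control RNA, with 90 and 68 cluster counts with a mature name.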

Other observations

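Reads with up to 2 added bases not encoded by the hairpin were listed for miR-93-5p alone among the cluster. There were 7 such sequences, all with 0 counts in oxidized control RNA, and 5 were tested. The most read was the 23-nt form with an added adenine, caaagtgctgttcgtgcaggtagA, with 548 and 699 counts in non-oxidized control, 260 and 457 in non-oxidized methyltransferase and 423 and 211 in oxidized methyltransferase RNA. Its change on oxidation of methyltransferase RNA was -0.46 ± 0.43 on the log2 scale (SE, edgeR adjusted p = 0.544). The 23-nt form without the added base had -4.58. The read with the added adenine also equals the 24-nt precursor match with its last base replaced. That match had -1.86, and the alternatives cannot be told apart. The 22-nt form with an added uracil had 195 and 213 counts without and 22 and 14 with oxidation (-3.77 ± 0.46, adjusted p = 0.000332), and with an added adenine 121 and 231 against 19 and 12 (-3.75 ± 0.52, adjusted p = 0.000757). These 2 sequences also equal the 23-nt form with its last base replaced, and the alternatives cannot be told apart. They do not end in guanine.

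Sequences at 1 substitution from a cluster member numbered 40, of which 39 belonged to miR-93-5p and 29 were tested. All 29 were lower after oxidation of control RNA and 27 were higher in oxidized methyltransferase than in oxidized control RNA, where 46.4% and 42.3% of all sequences tested and 92.8% and 85.3% of mature sequences were. After oxidation of methyltransferase RNA 16 of them were lower (55.2%, against 11.2% of all and 41.4% of mature sequences), with a median of -2.90. The miR-93-5p ones summed to 2144 and 2172 counts in non-oxidized control, 5 and 8 in oxidized control, 1955 and 2854 in non-oxidized methyltransferase and 613 and 214 in oxidized methyltransferase RNA.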
